A study of Mus musculus with 12 samples.

Results

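The genes described here are 10 genes used to mark T cells and natural killer (NK) cells. Cd3e, Cd3g, Cd8a and Lck stand for T cells, and Nkg7, Gzma, Gzmb, Prf1, Klrd1 and Il2rb for NK cells and cytotoxic lymphocytes. They were picked by gene symbol, and the platform annotation paired 9 of the 10 with 12 probe sets, out of 12393 genes and 22626 probe sets on the arrays. Lck was paired with no probe set in the annotation used here and is not analysed here. The arrays came from female nude NCR mice on day 7 after an orthotopic injection. The 4 groups were lung of mice with a 4T1 tumor, lung of control mice given phosphate-buffered saline, liver of mice with a 4T1 tumor and liver of control mice, with 3 arrays in each. 4T1 is a mouse mammary carcinoma cell line, and all animals, controls included, were nude. Each array measured total RNA of a whole organ sample, so fewer cells of a type and less RNA per cell cannot be told apart.

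T cells mature in the thymus and recognise antigen through a receptor that signals through the CD3 chains, with CD8 as the co-receptor of cytotoxic T cells and the kinase Lck as the first enzyme of the pathway. NK cells need no thymus: they kill target cells by releasing perforin and granzymes from granules, and they depend on interleukin-15, which signals through the receptor chain coded by Il2rb. Nude mice lack a working thymus because of a mutation of Foxn1, so they have few mature T cells and keep their NK cells. Several of the genes are shared between both lineages: cytotoxic T cells also make granzymes and perforin, and some dendritic cells carry CD8 alpha.

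The values are log2 expression values per probe set, made by the authors with GCRMA. The lowest value on every array was 2.04, and a value within 0.05 of it is called lowest here. A gene was tested when at least 3 of the arrays compared lay above 4. Levels of different probe sets cannot be set against each other, so each gene is compared only with itself. Alb, the albumin gene of hepatocytes, read 14.39 on lung tumor array 1 and 14.65 on lung control array 3, against 8.96 to 11.08 on the other lung arrays. Results in lung are therefore also given without both of these arrays. Alb ran from 16.05 to 16.20 on the liver arrays. Sftpc, a surfactant gene of the alveolar epithelium, read 15.70 to 15.86 on the lung arrays, 6.54 on liver control array 2 and 2.24 to 2.63 on the other liver arrays.

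The T cell genes lay at or near the lowest value in both organs. Cd3e, which codes for the epsilon chain of CD3, read 2.04, 2.09 and 2.04 in tumor-bearing lungs, against 2.04 on each control lung array. In liver Cd3e read 2.35, 2.04 and 2.04 in tumor-bearing mice, against 2.04 on each control array. Both probe sets of Cd8a, the gene of the CD8 alpha chain, gave 1 and the same value on all 12 arrays, 2.06 for the first and 2.04 for the second.

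Cd3g, the gene of the CD3 gamma chain, was the exception among the T cell genes. It read 2.17, 4.21 and 2.55 in tumor-bearing lungs, against 2.04 on each control lung array. All liver arrays of both groups gave 2.04. The lung groups did not overlap, but 1 array alone, tumor array 2, lay above 4, so Cd3g was not tested. With no filter on low values its difference in lung was 0.93 ± 0.60 (log2, SE, n = 3 each; limma adjusted p = 0.815). Of the 3 T cell genes with a probe set, 0 could be tested in either organ.

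Among the NK cell and cytotoxic genes, Nkg7, Gzma and Gzmb were measured above 4 on all 6 lung arrays. Gzma, the gene of the granule protease granzyme A, read 9.79, 10.94 and 9.95 in tumor-bearing lungs, against 10.89, 9.90 and 9.99 in control lungs. The groups overlapped, and the highest array of each stood about 1 log2 unit above the other two of its group. Nkg7, which codes for a granule membrane protein of NK and cytotoxic T cells, read 6.54, 7.98 and 5.86 in tumor-bearing lungs, against 7.19, 5.87 and 5.60 in control lungs. Here too the groups overlapped, with tumor array 2 and control array 1 the highest. Gzmb, the gene of granzyme B, read 4.82, 6.33 and 4.03 in tumor-bearing lungs, against 6.19, 4.44 and 4.62 in control lungs. The same pair of arrays was again the highest.

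Klrd1, the gene of CD94, the partner chain of the NKG2 receptors, read 2.75, 5.34 and 2.73 in tumor-bearing lungs, against 3.69, 3.45 and 3.53 in control lungs. Tumor array 2 lay above all control arrays and the other tumor arrays below them, and only that 1 array passed 4. On the liver arrays Klrd1 read 2.10 to 2.16 in tumor-bearing mice, against 2.04 to 2.31 in control mice. Prf1, the perforin gene, has a pair of probe sets. The first read 2.04 on 11 arrays and 2.16 on liver control array 3, and the second read 2.54 on lung tumor array 2 and 2.04 to 2.05 on the other arrays. Both probe sets of Il2rb, the gene of the interleukin-2 and interleukin-15 receptor beta chain, gave 2.04 on all 12 arrays. A lowest value means no signal above the array's background correction, and whether these transcripts were absent was not tested. Of the 12 probe sets, 7 had no array above 4 and 4 were at the lowest value on every array.

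**Figure D1:**
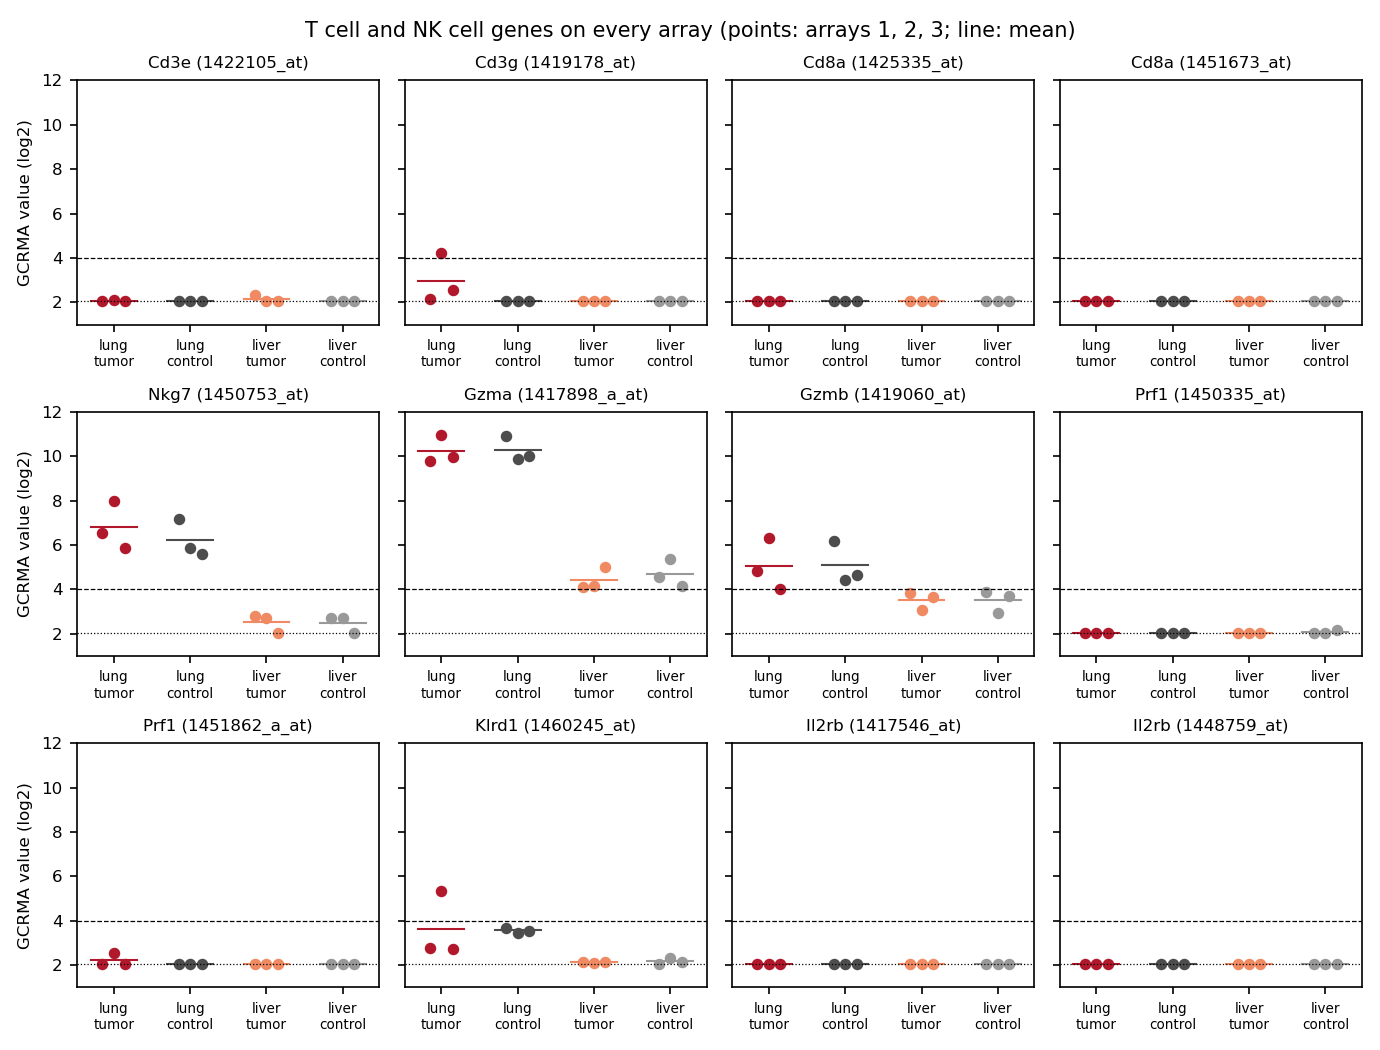
GCRMA values (log2) of the 12 probe sets of the 9 genes, with 1 point per array (arrays 1, 2 and 3 from left to right in each group) and a line at the group mean; the dashed line marks 4 and the dotted line the lowest value of 2.04. Nkg7, Gzma and Gzmb lie above 4 on all lung arrays with overlapping groups, while the probe sets of Cd3e, Cd8a, Prf1 and Il2rb stay near the lowest value.

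The 3 genes that moved together across the lung arrays are shown with the sequence around their transcription start, 250 bases before it to 50 after it, from RefSeq (GRCm38.p6). Capitals mark matches on either strand to the RUNX motif TGTGGT, the T-box motif GGTGTG, the ETS motif AGGAAG and the AP-1 motif TGANTCA, all chosen for factor families known in T and NK cells. The table held 8 of the 10 genes, without Klrd1 and Il2rb.
Nkg7, chr7:43436888-43437187, plus strand: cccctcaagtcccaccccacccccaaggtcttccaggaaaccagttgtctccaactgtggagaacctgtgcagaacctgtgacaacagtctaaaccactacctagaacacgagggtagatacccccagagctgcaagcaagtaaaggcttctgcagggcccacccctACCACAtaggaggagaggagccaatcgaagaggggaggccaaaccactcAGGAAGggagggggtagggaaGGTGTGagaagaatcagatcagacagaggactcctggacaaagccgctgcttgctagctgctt
Gzma, chr13:113100932-113101231, minus strand: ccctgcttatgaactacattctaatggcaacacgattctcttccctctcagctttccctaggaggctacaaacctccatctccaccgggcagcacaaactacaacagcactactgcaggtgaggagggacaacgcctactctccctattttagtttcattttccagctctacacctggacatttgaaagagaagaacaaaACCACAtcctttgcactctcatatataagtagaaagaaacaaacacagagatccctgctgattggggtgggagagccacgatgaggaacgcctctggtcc
Gzmb, chr14:56262285-56262584, minus strand: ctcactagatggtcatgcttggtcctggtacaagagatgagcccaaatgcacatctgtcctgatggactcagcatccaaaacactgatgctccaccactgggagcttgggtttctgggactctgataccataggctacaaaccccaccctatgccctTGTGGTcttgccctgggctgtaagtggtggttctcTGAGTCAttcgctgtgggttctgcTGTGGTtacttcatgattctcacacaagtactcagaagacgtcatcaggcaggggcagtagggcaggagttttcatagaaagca

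The RUNX motif was found 1 time in the Nkg7 window, 1 time in the Gzma window and 2 times in the Gzmb window. It occurred in 16.8% of all 32851 windows of 300 bases in the table. The Nkg7 window also held 1 T-box and 1 ETS motif, which occurred in 19.0% and 35.4% of the windows, and the Gzmb window held 1 AP-1 motif, found in 7.81%. None of the matches overlapped, and a match describes letters only.

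No NK cell or cytotoxic gene tested passed the threshold between tumor-bearing and control lungs. Gzma averaged 10.23 ± 0.62 in tumor-bearing lungs and 10.26 ± 0.55 in control lungs (log2, SD, n = 3 each). Its difference was -0.033 ± 0.40 (SE), with a 95% interval of -1.01 to 0.95 (limma adjusted p = 0.985). Gzmb averaged 5.06 ± 1.17 in tumor-bearing lungs and 5.09 ± 0.96 in control lungs, a difference of -0.030 with an interval of -1.79 to 1.73 (adjusted p = 0.992). Nkg7 averaged 6.79 ± 1.08 in tumor-bearing lungs and 6.22 ± 0.85 in control lungs, a difference of 0.57 with an interval of -1.03 to 2.17 (adjusted p = 0.759). The intervals of Gzmb and Nkg7 do not exclude a rise of 1 log2 unit, and that of Gzma does not reach one.

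Over all genes tested in lung, 0.620% were called higher and 0.114% lower at an adjusted p under 0.05, and the arrays of both groups did not overlap for 18.6% of the genes. Of Nkg7, Gzma and Gzmb, 0 were called, 0 had an unadjusted p under 0.05 (13.2% over all genes) and 0 had groups that did not overlap. The differences rested on single arrays. Without lung tumor array 2 they were -0.021 for Nkg7, -0.39 for Gzma and -0.66 for Gzmb, and without lung control array 1 they were 1.05, 0.28 and 0.52. Without tumor array 3 they were 1.04, 0.11 and 0.48, without tumor array 1 they were 0.70, 0.18 and 0.09, without control array 2 they were 0.40, -0.22 and -0.35, and without control array 3 they were 0.26, -0.17 and -0.26. With lung tumor array 1 and lung control array 3 both left out the values were 0.39, 0.05 and -0.14. None of these passed the threshold.

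The larger spread in lung lay within the groups. Lung tumor array 2 and lung control array 1 were the highest arrays for Gzma, Nkg7, Gzmb and Klrd1. The same held for Ccl5, the gene of a chemokine made by NK and T cells, which read 8.35, 9.89 and 8.52 in tumor-bearing lungs, against 9.58, 8.50 and 8.54 in control lungs. It did not hold for most of the further list of NK cell receptors and regulators, which also has genes used in myeloid cells, such as Fcer1g and Tyrobp. Of its 10 genes with a lung array above 4, the pair was highest for 2, Ncr1 and Klrg1. Tumor array 2 was the single highest array for 7, these included. Ncr1, the gene of the NK cell receptor NKp46, read 2.77, 4.76 and 2.70 in tumor-bearing lungs, against 4.20, 3.30 and 3.71 in control lungs. Of 9 further granule and effector genes with such an array, the pair was highest for Ccl5 alone. Ncr1, Klrg1 and Ccl5 are named for this order after their values were seen. Of the 7907 genes tested in lung, 210 (2.66%) had this pair of arrays as their highest.

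Summed levels of markers of other cell types did not follow that order. For 0 of 8 marker lists were lung tumor array 2 and lung control array 1 the highest lung arrays in the summed level, which is the log2 of the sum of the unlogged values. Only 2.66% of all genes tested in lung had that pair highest. A count of 0 of 8 was thus likely for any lists and sets no cell type apart. Such a sum is set mainly by the brightest genes of a list, and the order of each marker was not examined. The neutrophil list read 16.68, 16.60 and 16.48 in tumor-bearing lungs, against 12.64, 14.46 and 13.79 in control lungs, control array 1 being the lowest. The list of hepatocyte markers read 14.64, 10.53 and 9.34 in tumor-bearing lungs, against 11.36, 9.41 and 15.13 in control lungs. The cardiac muscle list, with Nppa at the lowest value throughout, read 11.38, 13.36 and 12.74 in tumor-bearing lungs, against 10.42, 13.44 and 14.29 in control lungs. The list of mast cell and basophil markers, cells that in mouse can also carry granzyme B, had 4 of 8 genes (Cpa3, Fcer1a, Ms4a2 and Cma1) at the lowest value on all arrays, and its summed level, set by Kit, ran from 10.94 to 11.04 in tumor-bearing lungs, against 10.87 to 11.11 in control lungs. Mcpt8, a protease gene of mouse basophils, read 7.31, 5.10 and 7.76 in tumor-bearing lungs, against 2.04 on each control lung array and each liver array. It passed the filter through the tumor-bearing lungs alone, and in lung it missed the threshold (limma adjusted p = 0.0545). The part of basophils in the granzyme B values was not tested.

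**Figure D2:**
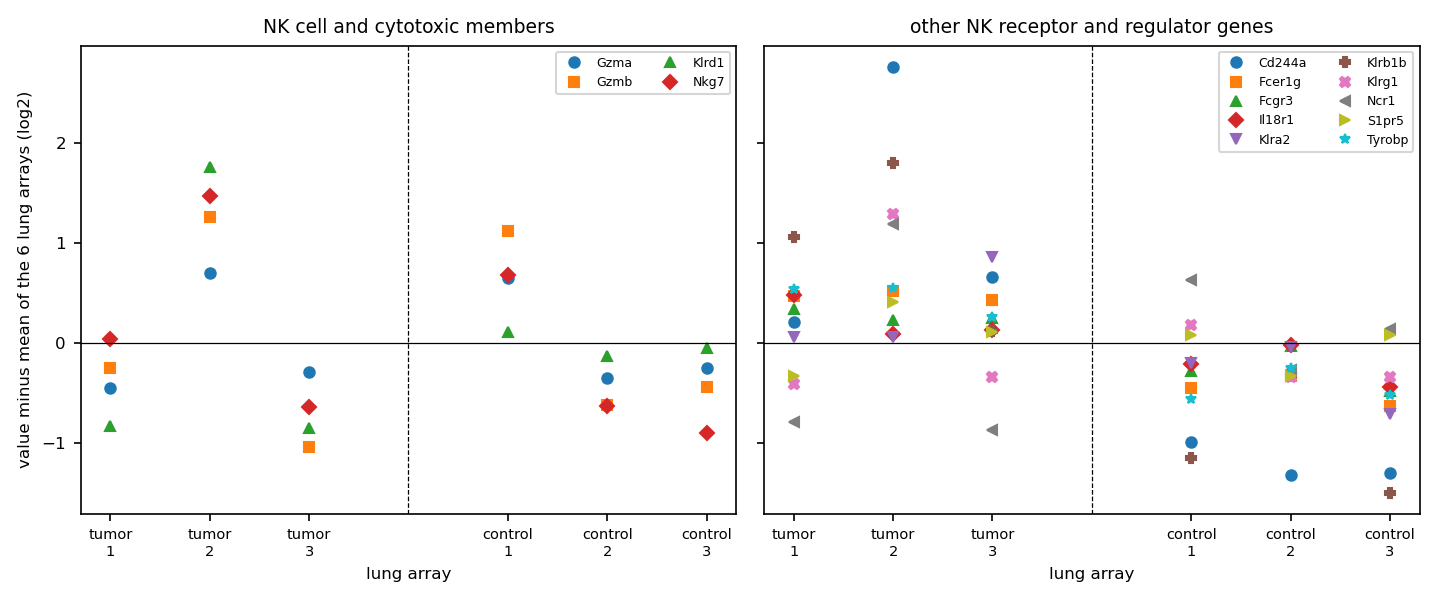
Log2 value minus the mean of the gene over the 6 lung arrays, for the 4 NK cell and cytotoxic members (left) and the 10 further NK cell receptor and regulator genes (right) that have a lung array above 4; tumor-bearing lungs stand left of control lungs. The 4 members are highest on tumor array 2 and next highest on control array 1, an order that 2 of the 10 other genes share.

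The pattern over arrays was also matched against all other genes. None of the T cell genes could be tested in both organs, so no match was sought for them. For Gzma, the only cytotoxic gene tested in both, the values minus the mean of their organ were most like those of Rnf7 (Pearson's r = 0.85 over 12 arrays), Rgs10 (0.84), Ipo11 (0.79), Nck2 (0.78) and Kcnq1 (0.78), out of 7188 genes. Rgs10 codes for a regulator of G protein signalling and Nck2 for a signalling adaptor. Over the 6 lung arrays alone, a choice made after the values were seen, the mean of Nkg7, Gzma and Gzmb was most like Slc66a2 (0.98), Ccl5 (0.96), Abcb8 (0.96), Pcbp3 (0.96) and Dzip1 (0.96), out of 7892 genes. With so few arrays high values arise for many genes, and these are descriptions.

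In liver the cytotoxic genes were low in both groups. Gzma read 4.11, 4.15 and 4.99 in tumor-bearing livers, against 4.54, 5.36 and 4.13 in control livers, so the groups overlapped. The highest of these arrays, liver control array 2, was the liver array with the high Sftpc value, and the part of lung transcripts in its Gzma value was not tested. The difference was -0.26 ± 0.39 (SE), with an interval of -1.24 to 0.72 (limma adjusted p = 0.707), and it was 0.083 without liver control array 2 and -0.55 without liver tumor array 3. It was -0.11 without tumor array 1, -0.13 without tumor array 2, -0.33 without control array 1 and -0.53 without control array 3. Nkg7 read 2.81, 2.69 and 2.04 in tumor-bearing livers, against 2.69, 2.69 and 2.04 in control livers, and Gzmb read 3.82, 3.07 and 3.68, against 3.89, 2.94 and 3.68. Neither had a liver array above 4, so neither was tested there. Over all genes tested in liver 0.635% were called higher and 1.23% lower, and the groups did not overlap for 33.1%.

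The difference in tumor effect between the organs could be tested for Gzma alone. The effect in lung minus that in liver was 0.23 for Gzma (interval -1.11 to 1.57, limma adjusted p = 0.886), and it was -0.13 without lung tumor array 2 and -0.12 without liver control array 2. Over all genes 1.03% were called with a higher and 0.522% with a lower effect in lung. Nkg7 and Gzmb passed the filter over all 12 arrays through the lung arrays alone, so their difference restates the lung value and is not read as one between organs.

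**Figure D3:**
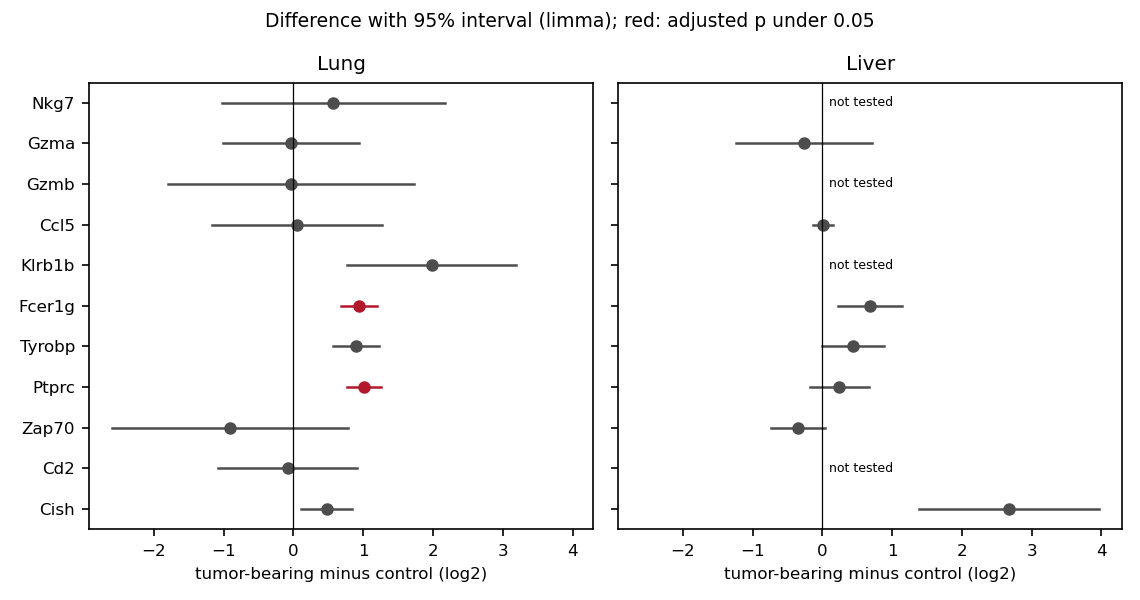
Tumor-bearing minus control difference (log2) with its 95% interval from limma in lung and in liver, for the tested members and for genes of the T and NK cell lists; red marks an adjusted p under 0.05. The intervals of Nkg7, Gzma and Gzmb cross 0 in lung, and Fcer1g and Ptprc are the ones past the threshold there.

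Of 36 further T cell symbols, 27 were matched to a gene on the arrays, 21 of these had no array above 4 and 10 were at the lowest value on all arrays. In lung 3 could be tested and 0 passed, with 0 at an unadjusted p under 0.05, which 13.2% of all genes tested in lung had (median difference -0.083, against -0.014 over all genes tested). Zap70, the kinase gene that acts after Lck, read 3.71, 5.08 and 2.26 in tumor-bearing lungs, against 4.19, 4.84 and 4.73 in control lungs (difference -0.90 ± 0.69 SE, adjusted p = 0.642). Cd247, the gene of the CD3 zeta chain, which NK cells also use, read 4.03, 4.82 and 4.49 in tumor-bearing lungs, against 3.84, 4.73 and 3.73 in control lungs (difference 0.35 ± 0.33 SE, adjusted p = 0.708). The other probe sets of Cd247 read 2.04 on all 12 arrays. In liver 2 could be tested and 0 passed, with 0 at an unadjusted p under 0.05, which 25.9% of all genes tested in liver had. There Zap70 differed by -0.35 ± 0.15 SE (adjusted p = 0.221) and Dntt, the gene of the nucleotide-adding enzyme of receptor rearrangement, by -0.25 ± 0.48 SE (adjusted p = 0.766).

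Of 40 further symbols of NK cell receptors and regulators, 25 were matched and 14 of these had no array above 4. In lung 6 were tested, and all 6 had higher means in tumor-bearing mice (median difference 0.77, against -0.014 over all genes). Of these 5 had an unadjusted p under 0.05 (13.2% over all genes), and 1 passed as higher (0.620% over all genes). The gene that passed was Fcer1g, which codes for the signalling chain that Fc receptors use in NK cells and in myeloid cells. Tyrobp, also used in myeloid cells, is another of the 5, so these counts do not stand for NK cells alone. Fcer1g read 10.21, 10.26 and 10.17 in tumor-bearing lungs, against 9.28, 9.41 and 9.10 in control lungs, 1.93-fold higher with no overlap (limma adjusted p = 0.0281). Its adjusted p was 0.0882 without lung tumor array 1, 0.114 without tumor array 2, 0.0737 without tumor array 3, 0.121, 0.0640 and 0.0934 without control arrays 1, 2 and 3, 0.0794 with no filter, and 0.276 with lung tumor array 1 and lung control array 3 both left out.

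Tyrobp, the gene of the adaptor DAP12 of NK and myeloid receptors, read 12.63, 12.64 and 12.35 in tumor-bearing lungs, against 11.52, 11.83 and 11.56 in control lungs, and missed the threshold (difference 0.90 ± 0.13 SE, adjusted p = 0.0555). Klrb1b, an NK cell lectin receptor gene of a family of close copies, read 5.55, 6.28 and 4.61 in tumor-bearing lungs, against 3.33, 4.16 and 2.99 in control lungs. The groups did not overlap, and the difference of 1.98 ± 0.49 (SE) did not pass (adjusted p = 0.181). Control array 2, at 4.16, was the only control lung array above 4, so Klrb1b passed the filter mainly through the tumor-bearing lungs. These values rest on 1 probe set. Another probe set of Klrb1b read 2.55, 2.89 and 2.10 in tumor-bearing lungs, against 2.08, 2.14 and 2.08 in control lungs, with overlap. The remaining ones read 2.04 on every lung array. On the brightest probe set the 6 liver arrays lay between 2.04 and 2.17, so no comparison of its effect between organs is drawn. Cd244a, the gene of the receptor 2B4 of NK cells and some myeloid cells, chosen after its values were seen, read 3.66, 6.21 and 4.11 in tumor-bearing lungs, against 2.46, 2.13 and 2.15 in control lungs, with too few arrays above 4 for a test. In liver 5 genes of the list were tested and 0 passed, 1 with an unadjusted p under 0.05 (25.9% over all genes). There S1pr5, a receptor gene tied to NK cell egress, differed by -0.87 ± 0.57 SE (adjusted p = 0.383) and Fcer1g by 0.69 ± 0.18 SE (adjusted p = 0.0998).

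Of 15 symbols of kinases and adaptors next to the T cell receptor, 12 were matched and 7 tested in lung. There 4 had higher means (median difference 0.61, against -0.014 over all genes). An unadjusted p under 0.05 was found for 4 (13.2% over all genes), and 1 passed as higher (0.620% over all genes). Zap70 belongs to this list as well. Ptprc, the gene of CD45, a phosphatase that activates Lck and is carried by all leukocytes, read 12.03, 12.23 and 11.97 in tumor-bearing lungs, against 11.10, 11.03 and 11.05 in control lungs, 2.02-fold higher with no overlap (limma adjusted p = 0.0182). Its adjusted p was 0.0677 without lung tumor array 1, 0.0971, 0.0892 and 0.105 without control arrays 1, 2 and 3, 0.0745 with no filter, and 0.276 with lung tumor array 1 and lung control array 3 both left out. In liver 7 were tested and 0 passed, with 1 at an unadjusted p under 0.05 (25.9% over all genes). This was Ptpn6, the gene of the phosphatase SHP-1 (difference 0.50 ± 0.095 SE, adjusted p = 0.0602). Lcp2, the gene of the adaptor SLP-76, differed there by 0.45 ± 0.19 SE (adjusted p = 0.215).

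Neutrophil markers were higher beside Fcer1g and Ptprc: 9 of 11 were matched and none was at the lowest value throughout. Of the 9 tested in lung 4 were called higher and 0 lower, against 0.620% and 0.114% over all genes. Between control lung and control liver only 5 of the 9 passed the filter. The others were thus not above 4 on every control lung array and entered the lung test with the help of tumor-bearing arrays. For these the filter favoured a higher value in tumor-bearing lungs. How many of the called genes they include is not given here. The summed level of that list ran from 16.48 to 16.68 in tumor-bearing lungs, against 12.64 to 14.46 in control lungs. The monocyte and macrophage list ran from 15.79 to 16.10 in tumor-bearing lungs, against 15.77 to 15.95 in control lungs. Of its 6 genes tested in lung, 5 had higher and 1 lower means. At an unadjusted p under 0.05 there were 3 (13.2% over all genes), and 0 passed. The B cell list, with Pax5 at the lowest value throughout, ran from 8.64 to 9.26 in tumor-bearing lungs, against 6.59 to 6.96 in control lungs. The part of these cells in the values of Fcer1g, Tyrobp and Ptprc was not tested.

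No granule or effector gene passed the threshold in either organ. Of 26 symbols, 24 were matched, and 12 of these were at the lowest value on all arrays. In each organ 7 were tested, 0 passed and 1 had an unadjusted p under 0.05, against 13.2% of all genes in lung and 25.9% in liver. In lung the median difference was 0.12, against -0.014 over all genes, and Serpinb6b, a serine protease inhibitor gene, differed by -0.36 ± 0.11 and Srgn, the gene of the granule proteoglycan serglycin, by 0.31 ± 0.16 (SE, adjusted p = 0.253 and 0.475). In liver Srgn differed by 0.47 ± 0.24 and Ctsc, the gene of the protease that activates granzymes, by 0.44 ± 0.10 (SE, adjusted p = 0.271 and 0.0719).

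Of 15 symbols of the interleukin-2 and interleukin-15 pathway, 14 were matched, 5 were tested in lung and 6 in liver. In either organ 0 passed, with 1 in lung and 2 in liver at an unadjusted p under 0.05 (13.2% and 25.9% over all genes). Cish, a feedback inhibitor gene of STAT5 signalling, read 8.53, 8.91 and 9.53 in tumor-bearing livers, against 6.59, 7.08 and 5.27 in control livers. The groups did not overlap, and the difference of 2.68 ± 0.52 (SE) missed the threshold (limma adjusted p = 0.0604). Under 3 of 17 alternatives Cish passed in liver. These were all 12 arrays in 1 fit (limma adjusted p = 0.00741), trend and robust options (0.0356) and centred array medians (0.0451). The other 14 did not pass. Among them were no filter (0.140), the replicate number as a block (0.140) and each array left out in turn (0.104 to 0.162). Il2rb, the receptor chain gene of this pathway, gave 2.04 on all 12 arrays. Which cells and which signal gave the Cish values in liver was not tested. In lung Cish read 8.60, 8.38 and 8.91 in tumor-bearing mice, against 8.15, 8.09 and 8.21 in control mice (difference 0.48 ± 0.15 SE, adjusted p = 0.259). Il18, the gene of a cytokine that acts with interleukin-15 on NK cells, differed by 0.52 ± 0.44 in lung and 0.67 ± 0.24 in liver (SE, adjusted p = 0.675 and 0.158). The effect of Cish in lung minus that in liver was -2.20 ± 0.57 (SE, adjusted p = 0.0933). Across the 5 further lists 0 genes passed for that difference between organs in limma, with 0 to 2 per list at an unadjusted p under 0.05 (17.2% over all genes).

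Gzma was higher in lung than in liver. In control mice Gzma averaged 10.26 ± 0.55 in lung and 4.68 ± 0.63 in liver (log2, SD, n = 3 each). The difference was 5.58 ± 0.40 (SE, limma adjusted p = 3.81e-05). Fits between organs took lung and liver arrays as independent, although the design gives the same 3 control mice for both and no label pairs them. With the replicate number as a block, which is not known to pair samples, the limma adjusted p of Gzma was 0.000491. The control liver arrays read 4.54, 5.36 and 4.13, the lowest of them near 4, so no fold is given. Liver control array 2, the highest, had the high Sftpc value, and without it the difference was 5.93. Nkg7 averaged 6.22 ± 0.85 in control lung and 2.48 ± 0.38 in control liver. Since every control liver array lay under 4, this is at least 4.66-fold, taking 4 as the level in liver (adjusted p = 0.000384). Gzmb averaged 5.09 ± 0.96 in control lung and 3.50 ± 0.50 in control liver, at least 2.12-fold higher (adjusted p = 0.0307). Nkg7 and Gzmb passed the filter on low values through the lung arrays alone, so a positive difference was bound to follow. The same held for Il18r1 and Cd2, and with the liver arrays for S1pr5 and Dntt. Over all genes 45.6% were called higher and 35.5% lower in control lung than in control liver.

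The call of Gzmb between the organs depended on single arrays and settings. For Gzmb 10 of 16 alternatives kept the call, the replicate number as a block among them (limma adjusted p = 0.00872), and 6 lost it. Its adjusted p was 0.0949 without liver control array 2 and 0.0634 without liver control array 3, 0.0905 with no filter, 0.0997 after a further quantile normalization, 0.0746 after centring the medians and 0.0689 with values under 4 set to 4. Without lung control array 1 its difference was 1.03, against 1.58 with all arrays. Klrd1 was under the filter, and read 3.69, 3.45 and 3.53 in control lung, against 2.04, 2.31 and 2.16 in control liver, with no overlap. In tumor-bearing mice the averages were 10.23 ± 0.62 in lung and 4.42 ± 0.50 in liver for Gzma, 6.79 ± 1.08 and 2.52 ± 0.41 for Nkg7, and 5.06 ± 1.17 and 3.52 ± 0.40 for Gzmb.

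Genes of the lists followed both directions between the control organs. Such calls were common, as 45.6% of all genes were called higher and 35.5% lower in control lung. Of the granule and effector genes tested, 5 of 7 were called higher in lung and 0 lower (median difference 3.69, against 0.18 over all genes), among them Srgn (17.2-fold), Serpinb9, an inhibitor of granzyme B (12.9-fold), and Ctsc (1.47-fold, a call lost after centring the medians). Serpinb6b read 12.19, 12.11 and 11.95 in control lung, against 4.12, 3.54 and 3.61 in control liver, and Ccl5 read 9.58, 8.50 and 8.54 in control lung, against 4.28 on each control liver array. These liver values lay at or near 4 and, for Ccl5, were identical, so no fold is given. Of the NK cell receptors and regulators tested, 4 of 6 were called higher in lung and 1 lower. Il18r1 and S1pr5 passed the filter through 1 organ alone, which fixed their directions. These counts are therefore not read against the shares over all genes. Il18r1, the interleukin-18 receptor gene, was at least 59.9-fold higher in control lung (adjusted p = 8.09e-08), Tyrobp 3.14-fold, Fcer1g 2.23-fold and the Fc receptor gene Fcgr3 2.05-fold. S1pr5 was at least 6.86-fold lower in control lung than in control liver (adjusted p = 0.00144).

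Among the other T cell genes tested, 1 of 3 was called higher and 2 lower in control lung (45.6% and 35.5% over all genes). Cd2 and Dntt passed the filter through 1 organ alone, which fixed their directions. These counts are therefore not read against those shares. Cd2, an adhesion receptor gene of lymphocytes, read 7.14, 7.63 and 7.07 in control lung, against 2.86, 2.86 and 2.59 in control liver (at least 9.71-fold higher, adjusted p = 2.69e-06). Zap70 read 4.19, 4.84 and 4.73 in control lung, against 9.08, 8.93 and 8.82 in control liver, and was called lower in lung (adjusted p = 3.93e-06). The lung values lay near 4, so no fold is given. The other probe set of Zap70 did not pass 4 on any array, reading 2.06 to 2.51 in control lung, against 2.81 to 3.21 in control liver. The probe sets of Zap70 thus disagreed, and what the brighter one measured in liver was not tested. Dntt read 2.37, 2.38 and 2.89 in control lung, against 8.22, 6.83 and 7.27 in control liver, at least 10.8-fold lower (adjusted p = 4.76e-05), and its other probe sets read 2.04 on every control lung array, against 2.42 to 4.26 and 4.45 to 5.74 in control liver. Whether the Dntt probe sets bound other transcripts in liver was not tested either. Of the interleukin-15 pathway, Il15ra, the receptor alpha chain gene, was called lower (3.78 ± 0.24 in control lung and 7.64 ± 0.38 in control liver, SD), Stat5a was 1.73-fold lower and Cish 3.58-fold higher in control lung. Of the kinases and adaptors Ptprc was 5.44-fold and Fyn 4.44-fold higher in control lung.

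**Figure D4:**
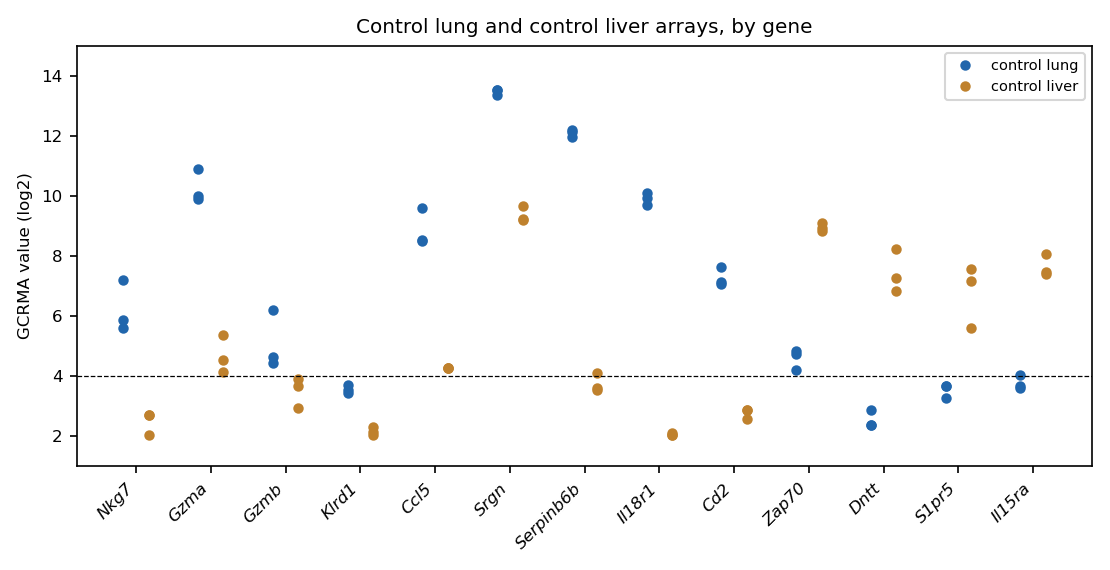
GCRMA values (log2) of cytotoxic members and genes of the lists in control lung (left of each pair) and control liver (right), with 1 point per array and the dashed line at 4. Nkg7, Gzma and Ccl5 lie higher in lung, and Zap70, Dntt, S1pr5 and Il15ra lie higher in liver.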

How the data were processed

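The deposited values are log2 expression values per probe set of Affymetrix mouse arrays, 1 column for each of 12 samples, which the authors made with GCRMA, per the submitters' processing notes. Those notes also name limma. No source used here gives versions or settings. GCRMA subtracts a background modelled from probe sequences and then applies quantile normalization. Many low probe sets end at a shared lowest value, which hides differences among them. The platform annotation gave 1 symbol for 20380 of 22626 probe sets. The 691 with several symbols and the 1555 it did not list were left out. Of several probe sets for 1 of the 12393 genes the brightest on average was used. Genes entered a test if they exceeded 4 (log2) on 3 or more of the arrays compared. Groups were compared with limma 3.58.1 (lmFit, eBayes) in R 4.3.3 and p-values were adjusted by Benjamini-Hochberg over all genes tested, with a threshold of 0.05. The effect in lung minus that in liver was an interaction over all 12 arrays. The fits were tested on simulated data.

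The members and gene lists were chosen with earlier results of these data known. All members are named. Of each further list, the genes past the threshold (up to 5 by size), or else the 2 with the largest difference, are named. Precision is limited by having 3 arrays in each group. The design text gives 3 mice with a tumor and 3 controls, and no label says which lung and liver came from 1 mouse. Alternatives covered the filter, probe sets, normalization, low values, eBayes options, array weights, the replicate number as a block, 1 fit over all arrays and each array left out with the genes tested kept. Leaving out both lung arrays rich in hepatocyte transcripts was listed among them with earlier results known.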

Additional observations from a re-analysis of the deposited data

How the results depend on the processing

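Of 1029 repeats of single gene differences, 977 kept their direction and side of the threshold, 23 lost the call, 6 gained one and 23 changed sign. No tumor difference of Nkg7, Gzma or Gzmb passed under any alternative (adjusted p 0.433 or more in lung and liver). With 1 array left out the lung differences ran from -0.021 to 1.05 for Nkg7, -0.39 to 0.28 for Gzma and -0.66 to 0.52 for Gzmb, the liver difference of Gzma from -0.55 to 0.083 and that of Dntt from -0.63 to 0.14. For lung minus liver effects the ranges were -0.059 to 1.02 for Nkg7, -0.13 to 0.54 for Gzma, -0.68 to 0.51 for Gzmb and -1.25 to 0.16 for Zap70, though Nkg7 and Gzmb had no liver array above 4. Gzma in lung was 0.051 without both arrays rich in hepatocyte transcripts. The effect in lung minus liver was 0.015 for Gzmb after a further quantile normalization and 0.12 for Zap70 with values under 4 set to 4. Between control lung and liver Gzmb missed the threshold with no filter (1.58), after a further quantile normalization (1.08), after median centring (1.16) and with values under 4 set to 4 (1.09), and ran from 1.03 to 1.91 with 1 array left out. The causes were not tested.

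Counts of called genes moved more. In lung 58 genes passed, against 11 with no filter, 114 with trend and robust options, 99 with array weights, 220 with all 12 arrays in 1 fit and 5 to 33 with 1 array left out. Without both arrays rich in hepatocyte transcripts 0 passed in limma, with 769 at an unadjusted p under 0.05. In liver 144 passed, against 62 with no filter, 233 with the filter at 5, 81 after quantile normalization, 422 with trend and robust options, 653 in 1 fit of all arrays and 0 to 1 with 1 array left out (1456 to 1952 at an unadjusted p under 0.05). For the difference between organs 131 passed, against 64 without both arrays rich in hepatocyte transcripts and 57 to 145 with 1 array left out. Between control organs 6705 genes passed, and 10097 probe sets when each was tested separately.

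With the replicate number as a block 1 gene passed in lung, 0 in liver (1791 at an unadjusted p under 0.05 in limma) and 70 for the difference between organs, and Fcer1g and Ptprc in lung had an adjusted p of 0.152. The numbers are not known to pair samples: deviations of same-numbered tumor and control arrays correlated at -0.36 to 0.28. Same-numbered lung and liver arrays correlated at 0.024 to 0.086, each array best with its own number in 6 of 6, a hint from the data only.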
